A study of Homo sapiens with 19 samples.

Results

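The genes described here are the zinc finger genes of human chromosome 19 whose symbol is ZNF followed only by digits. GENCODE release 29 places 241 such genes on chromosome 19. Of these, 236 were listed in the read counts of at least 1 of the 19 RNA-seq libraries, among 44717 gene identifiers in all, and 232 were listed in all 19 libraries. ZNF8, ZNF229, ZNF550, ZNF723 and ZNF728 were not analysed here, and ZNF98, ZNF99, ZNF676 and ZNF729 carried no row in the Hermes 3A shMITF counts. The choice used symbol and position only, and no measured value, but it was made with earlier results of these data known. The paper that reported the data had already named a set of ZNF factors among genes with BRG1 sites that rose with BRG1 silencing. A further 231 listed ZNF genes of the same naming lie on other chromosomes and served for comparison.

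Most of these genes encode proteins with a row of C2H2 zinc fingers that binds DNA, and many also carry a KRAB domain near their start. The KRAB domain binds TRIM28 (also called KAP1), which brings the histone methyltransferase SETDB1 and heterochromatin proteins, and many KRAB zinc finger proteins silence transposable elements in this way. The genes arose by repeated tandem duplication, stand in clusters on chromosome 19, and their gene bodies are known in several cell types to carry the same repressive histone mark.

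501Mel is a human melanoma cell line and Hermes 3A an immortalized, untransformed human melanocyte line. Each line stands for 1 culture grown in its own medium, so that line and medium cannot be told apart. Cells were infected with lentiviral vectors that expressed a short hairpin RNA against BRG1 (shBRG1), the chromatin-remodelling ATPase encoded by SMARCA4, or against MITF (shMITF), the melanocyte transcription factor, or a scramble hairpin, and were selected with puromycin. In 501Mel there were 3 shSCR1 and 3 shBRG1 replicates, and separately 2 shSCR2 and 2 shMITF replicates. In Hermes 3A there were 3 replicates each of shSCR, shBRG1 and shMITF, and both knockdowns share those 3 shSCR libraries. The libraries came from total RNA depleted of ribosomal RNA, and the study asked how MITF and BRG1 act together in the 2 lines. Nothing in the sources used here says how far replicates were separate cultures, so the p-values measure the spread between these samples only.

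Between 29158502 and 78857900 reads per library were counted on genes. SMARCA4 fell with shBRG1 by 2.36 on the log2 scale in 501Mel (SE 0.0540) and by 2.38 in Hermes 3A (SE 0.0483). MITF fell with shMITF by 1.06 in 501Mel (SE 0.135, adjusted p = 0.00143) and by 0.85 in Hermes 3A (SE 0.191, adjusted p = 0.0194). With shBRG1, MITF also fell, by 1.55 in 501Mel. CPM values are read counts scaled by the total of each library after that total was adjusted by a TMM normalization factor. Summed melanocyte markers, 9 genes, ranged from 29920 to 32150 CPM with shSCR1 and from 3268 to 3576 with shBRG1 in 501Mel. In Hermes 3A the sums ranged from 64120 to 65340 CPM with shSCR and from 30820 to 32460 with shBRG1. Most of these sums was PMEL and TYRP1, and PAX3 hardly moved in Hermes 3A (150 to 151 CPM). The 7 fibroblast markers summed to 3.86 to 5.24 CPM with shSCR1 and to 16.3 to 19.99 with shBRG1 in 501Mel, and to 75.8 to 85.0 and 144 to 152 in Hermes 3A. The Hermes 3A rise was mostly COL1A2 (67.3 to 139 CPM on average), while LUM (6.41 to 3.66) and DCN (0.107 to 0.0973) fell. With shMITF in Hermes 3A the fibroblast sum was 117 to 228 CPM and the melanocyte sum 26490 to 34670. The 5 keratinocyte and 4 leukocyte markers summed to at most 1.39 CPM in any library. Whether these shifts had a part in the results below was not tested. The 2 shMITF comparisons had a wider spread between replicates, with a biological coefficient of variation of 17.4% in 501Mel and 21.6% in Hermes 3A against 4.74% and 5.75% for shBRG1, so a change of given size was harder to call there.

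Of the 236 listed genes, 235 are annotated as protein coding and ZNF807 as a pseudogene. Their longest coding transcripts held a median of 12 C2H2 fingers, from 0 to 36 (ZNF208). The core of the KRAB A box, matched as leucine, tyrosine, any 2 residues, valine and methionine, stood in 185 of 235 proteins. A KRAB domain whose core departs from this string was not counted, so members without the core are not all shown to lack KRAB. Joined wherever less than 1 Mb lay between neighbours, 232 of the 241 genes fell into 9 clusters of at least 5, numbered from the short-arm end. The largest were cluster 9 (57 genes, ZNF628 to ZNF446, chr19:55476332-58481230 on GRCh38), cluster 8 (39 genes, ZNF175 to ZNF331, chr19:51571298-53580269) and cluster 4 (37 genes, ZNF101 to ZNF254, chr19:19668796-24129961). Near-identical copies are common: a median of 4.66% of the 50-base stretches of a member's transcripts also occurred in another gene, and 122 of 236 genes had under 5%. The sources used here do not give how the authors counted reads that match several genes, nor whether counting used strand.

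These genes were expressed at low levels. With shSCR1 in 501Mel their median level was 0.844 CPM per kilobase of exon, against 2.13 over 18043 other protein-coding genes, and only 4 of 236 exceeded 10. In Hermes 3A with shSCR the medians were 1.12 and 2.40. With shBRG1 in 501Mel the median level of the 236 genes was 1.95 CPM per kb, above the 1.75 of the other protein-coding genes.

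The share of all reads that fell on the 236 genes, scaled by library total alone, moved the same way with shBRG1. Under that scaling the median change of all genes tested with shBRG1 was 0.40 in 501Mel and 0.11 in Hermes 3A on the log2 scale. The ratios below are not corrected for it. In 501Mel the share was 0.170% to 0.173% in the 3 shSCR1 libraries and 0.425% to 0.430% in the 3 shBRG1 libraries, a ratio of 2.49. In Hermes 3A the share was 0.183% to 0.192% with shSCR and 0.227% to 0.236% with shBRG1, a ratio of 1.23. The groups did not overlap in either line. By a two-sided exact permutation test both differences gave p = 0.1 (0.133 after adjustment over 4 comparisons), the smallest p that 3 against 3 libraries allow. With shMITF in 501Mel the share was 0.203% to 0.209%, inside the range of shSCR2 (0.192% to 0.213%, exact permutation p = 1, where 2 against 2 cannot go below 0.333). With shMITF in Hermes 3A it was 0.196% to 0.252%, above every shSCR library, with a wide spread between the 3 libraries (exact permutation p = 0.1).

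**Figure D1:**
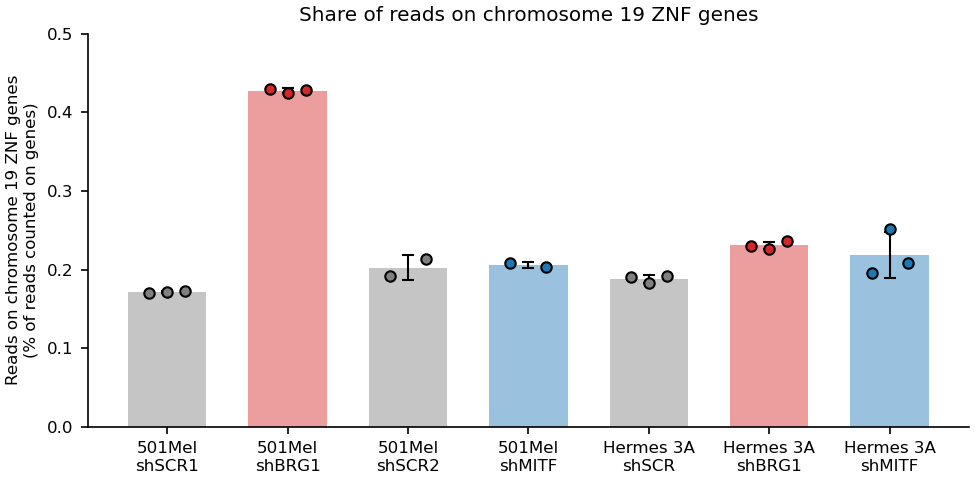
Share of reads on the 236 chromosome 19 ZNF genes, in percent of all reads counted on genes, in 7 groups. Points are libraries, bars the group mean, and error bars 1 SD (n = 3, or 2 for shSCR2 and shMITF in 501Mel). The 3 shBRG1 libraries of 501Mel lie between 0.425% and 0.430%, and no other library exceeds 0.252%.

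BRG1 knockdown in 501Mel was followed by a rise of most chromosome 19 ZNF genes that could be tested. In bulk RNA, fewer cells of a type and less RNA per cell cannot be told apart. Calls needed an adjusted p by edgeR's quasi-likelihood test under 0.05 and a log2 fold change beyond 1 in either direction, the thresholds of the study. Of 229 tested members, 139 were called up (60.7%) and 6 down (2.62%), where 21.7% and 17.4% of all 20514 genes tested were called up and down. Their median log2 fold change was 1.18 (lowest -3.12, highest 7.46), against 0.05 over all genes tested. At adjusted p alone, 201 members rose and 15 fell, beside 41.2% and 39.1% of all genes. The 7 listed members that did not pass the filter on low counts (ZNF69, ZNF99, ZNF154, ZNF491, ZNF763, ZNF807 and ZNF888) had at most 14 reads in any of these 6 libraries. ZNF genes on other chromosomes gave 50 up and 12 down of 216, with a median of 0.24, and other protein-coding genes of chromosome 19 gave 163 up and 162 down of 872, with a median of -0.06.

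Scaling moved all genes together in this comparison. With plain library sizes in place of TMM factors the median of all genes was 0.40 and that of the members 1.53. Members lay 1.13 above all genes under either scaling, but scaling shifts all genes nearly alike, so this gap could hardly change. With plain library sizes 175 members were called up and 4 down, beside 6192 and 2398 of all genes. With TMM factors 4453 and 3571 of all genes were called. With both 501Mel scramble groups pooled as the control, 119 members were up and 2 down, beside 4274 and 3029 of all genes.

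The largest rises among well-counted members were of genes at low levels in 501Mel, most of them KRAB genes. ZNF442 of cluster 3 (chr19:12345949-12365905, 14 fingers) had 0.0238, 0.0667 and 0.103 CPM with shSCR1 and 3.04, 3.47 and 2.94 with shBRG1, a log2 fold change of 5.64 (SE 0.292, adjusted p = 1.52e-14). ZNF560 of cluster 2 (chr19:9466507-9498607, 13 fingers) had 0.786, 1.18 and 0.787 CPM with shSCR1 and 15.9, 15.7 and 15.1 with shBRG1, a change of 4.05 (SE 0.122). Every shBRG1 library exceeded every control by more than 10 times for both genes. ZNF177 of cluster 2 rose by 5.07 (SE 0.110), from between 0.889 and 1.22 CPM to between 31.2 and 35.9, but 86.8% of its transcript stretches occur in another gene, so its own share of these reads is uncertain. ZNF781 of cluster 6, with 3 fingers and no KRAB core, rose by 5.13 (SE 0.199), from 0.156 to 0.453 CPM up to 8.66 to 11.0.

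Other large rises were seen in clusters 3, 8 and 4. ZNF44 of cluster 3 went from 0.334, 0.911 and 0.685 CPM to 9.33, 10.3 and 9.63, a log2 fold change of 3.91 (SE 0.168). In the same cluster ZNF799 rose by 3.78 (SE 0.135) and ZNF878 by 3.73 (SE 0.237), with 24.1% and 18.6% of their stretches shared with other genes. ZNF578 of cluster 8 rose by 3.85 (SE 0.236), from between 0.167 and 0.205 CPM to between 2.47 and 3.18. ZNF729 of cluster 4 had no read in the 3 shSCR1 libraries and 29, 25 and 20 reads with shBRG1, at least 19.9-fold higher when 3 reads over the 3 control libraries are taken as the floor, a bound that covers counting error only. It had the highest fitted change and was named after its values were seen, since it stayed under the 100 reads asked of named genes.

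The 6 members that fell past the fold threshold all lacked the KRAB core. ZNF536, which lies outside the clusters and encodes a neuronal transcriptional repressor, went from 15.2, 17.1 and 16.9 CPM to 5.50, 4.51 and 5.19, a log2 fold change of -1.69 (SE 0.0879, adjusted p = 1.62e-14). ZNF749 of cluster 9 went from 26.5, 34.2 and 33.0 CPM to 13.5, 13.6 and 14.4, a change of -1.17 (SE 0.0793). ZNF497 of cluster 9 changed by -1.01 (SE 0.0894), with 38.9% shared stretches. Neither ZNF749 (-0.82) nor ZNF497 (-0.66) was called with plain library sizes, nor against the pooled scramble groups. The other 3 were lowly expressed and named after their values were seen: ZNF541 (-3.12), a gene of male germ cells, ZNF296 (-1.94) and ZNF837 (-1.59), all at most 2.16 CPM in every library.

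The rise was spread along the chromosome. In each of the 9 clusters the median log2 fold change with shBRG1 was above 0, from 0.79 in cluster 7 and 0.82 in cluster 9 to 1.85 in cluster 4. In cluster 6, 21 of 24 tested genes were called up and all 24 rose at adjusted p alone. Cluster 4 had 27 of 34 called up, cluster 8 had 29 of 38, and cluster 3 had 13 of 22. In cluster 9, next to the long-arm end, 23 of 54 were up and 3 down, and in cluster 7, 10 of 23 were up and 1 down. The 9 genes outside clusters had 4 up and 2 down, with a median of 0.44. Cutting clusters at gaps of 0.5 Mb or 2 Mb gave 10 or 6 clusters.

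**Figure D2:**
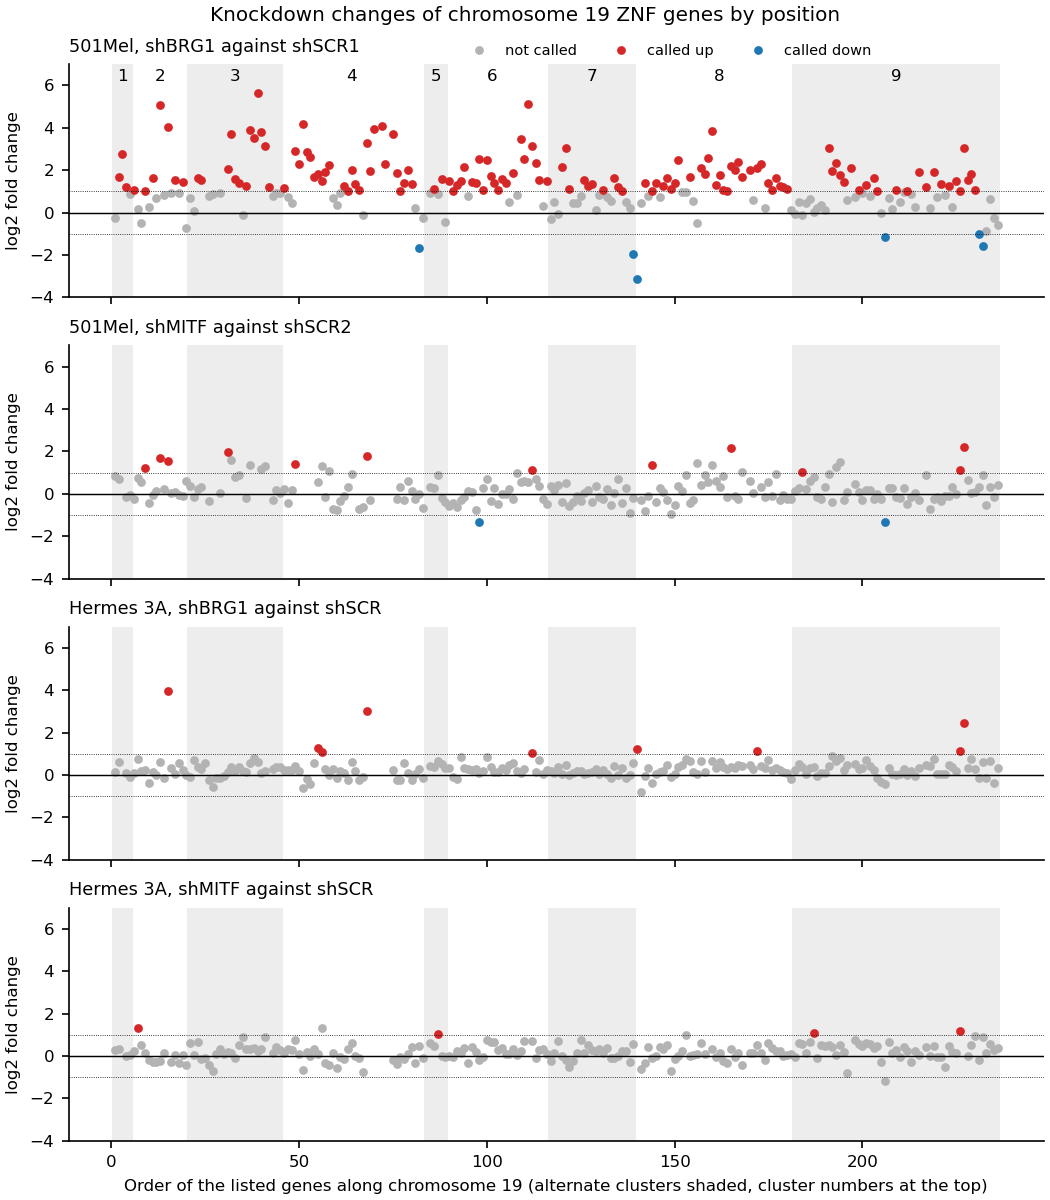
Log2 fold change (vertical axis) of each tested chromosome 19 ZNF gene, in order along the chromosome (horizontal axis, rank among 236 listed genes), in the 4 knockdown comparisons. Shading marks alternate clusters, dotted lines a log2 fold change of 1 and -1, and colours the calls. ZNF729, called up at 7.46 with shBRG1 in 501Mel, lies above the end of the axis and is not drawn. With shBRG1 in 501Mel, 139 genes are called up along all clusters, and in the other 3 comparisons 12, 9 and 4.

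Among the tested members, those with the lowest control level rose most with shBRG1 in 501Mel. Split into 3 equal bands by shSCR1 level, 65 of 76 members under 0.562 CPM per kb were called up with a median change of 1.99, 48 of 77 in the middle band with 1.13, and 26 of 76 above 1.62 CPM per kb with 0.75. Other genes within the same ranges of level had medians of 0.90, 0.09 and -0.21. Of these other genes 47.1%, 19.1% and 8.40% were called up, beside 85.5%, 62.3% and 34.2% of the members. Since the shSCR1 libraries enter both the band and the change, the bands were also set from the shSCR2 libraries, which this comparison does not use. The medians were then 2.04, 1.15 and 0.90 for members and 0.72, 0.06 and -0.23 for other genes. Both sets of bands hold only genes that passed the filter on low counts in the shSCR1 and shBRG1 libraries. A gene with almost no shSCR1 reads passed only if it was higher with shBRG1. The low band therefore leans towards rises, for members and other genes alike. With at least 10 counts in every sample, 132 of 206 members were up and 4 down, beside 2567 and 2616 of all genes. Their median was 1.19, against 0.01 over all genes.

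**Figure D3:**
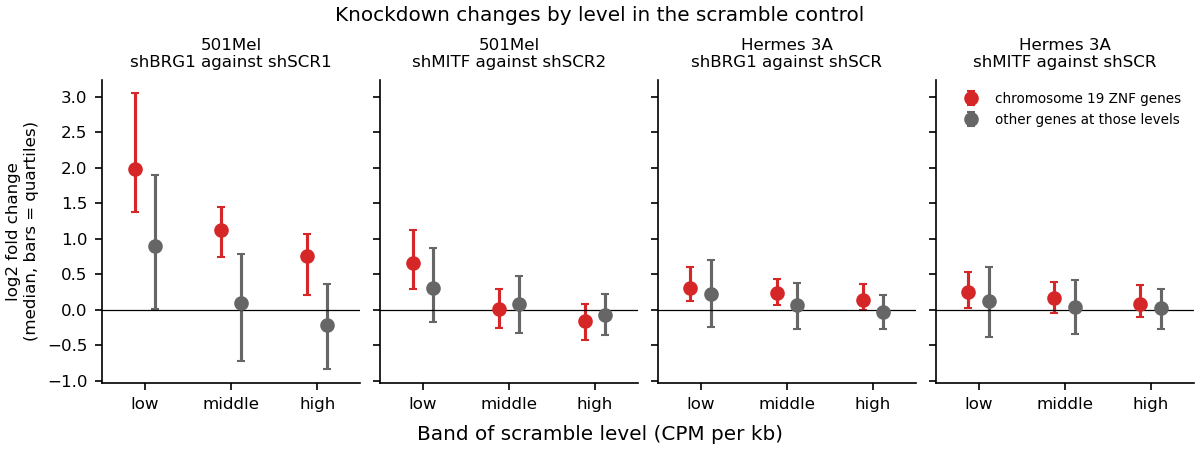
Median log2 fold change (points) with quartiles (bars) of chromosome 19 ZNF genes and of other genes within the same ranges of level, in 3 bands of level in the scramble control (CPM per kb of exon), for the 4 knockdown comparisons. With shBRG1 in 501Mel the members have medians of 1.99, 1.13 and 0.75 from the low to the high band, and the other genes 0.90, 0.09 and -0.21.

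Members with and without the KRAB core had different counts. Of 180 tested members with the core, 122 were called up and 0 down with shBRG1 in 501Mel (edgeR, also 0 down at an unadjusted p under 0.05 with the fold threshold, and 0 by DESeq2), with a median of 1.27. Of the 180, 169 rose and 6 fell at adjusted p alone, the lowest at -0.89, and 8 lay below 0. Of 49 without it, 17 were up and 6 down, with a median of 0.52. Members with 12 or more fingers had 85 of 126 up, and those with fewer had 54 of 103. Restricted to members with under 5% shared stretches, 68 of 119 were up and 3 down (57.1% up), with a median of 1.08. These splits describe the members and were not tested.

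Promoters of 209 of the 241 genes were matched by symbol to RefSeq sequences on GRCh38.p14, taken from 250 bases before to 50 bases after the start. They held a median of 20 CG dinucleotides, against 14 over 27305 promoters. The E-box CACGTG, bound by MITF and other factors and the same on both strands, stood in 3.83% of them and in 7.44% of all promoters. CATGTG, read on either strand, stood in 4.79% and 11.2%. The 250 bases before the start are printed for ZNF177, with a very large rise with shBRG1 in 501Mel, for ZNF135, called up in 3 of the 4 comparisons, for ZNF439, the named gene that differed most between the 2 lines, and for ZNF749, which fell with both knockdowns in 501Mel. Each reads 5′ to 3′ on the plus strand with CG dinucleotides in capitals, and none overlaps an annotated exon. ZNF177 lies at chr19:9362763-9363012 (10 CG), ZNF135 at chr19:58058989-58059238 (24 CG), ZNF439 at chr19:11848476-11848725 (10 CG) and ZNF749 at chr19:57435075-57435324 (15 CG).
ZNF177: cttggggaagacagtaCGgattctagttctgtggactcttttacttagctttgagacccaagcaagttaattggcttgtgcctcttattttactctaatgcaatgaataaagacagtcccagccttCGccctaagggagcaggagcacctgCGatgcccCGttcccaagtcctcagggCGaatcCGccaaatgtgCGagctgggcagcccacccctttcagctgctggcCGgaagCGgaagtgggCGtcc
ZNF135: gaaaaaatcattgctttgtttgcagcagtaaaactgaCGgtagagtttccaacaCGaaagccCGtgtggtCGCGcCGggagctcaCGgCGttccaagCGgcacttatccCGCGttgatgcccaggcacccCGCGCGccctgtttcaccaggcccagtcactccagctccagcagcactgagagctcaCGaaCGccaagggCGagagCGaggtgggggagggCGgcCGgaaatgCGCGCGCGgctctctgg
ZNF439: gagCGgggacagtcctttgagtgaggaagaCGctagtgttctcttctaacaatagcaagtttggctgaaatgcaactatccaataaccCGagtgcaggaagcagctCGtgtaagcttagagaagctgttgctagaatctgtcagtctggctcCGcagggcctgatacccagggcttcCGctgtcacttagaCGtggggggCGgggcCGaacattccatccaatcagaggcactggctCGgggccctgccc
ZNF749: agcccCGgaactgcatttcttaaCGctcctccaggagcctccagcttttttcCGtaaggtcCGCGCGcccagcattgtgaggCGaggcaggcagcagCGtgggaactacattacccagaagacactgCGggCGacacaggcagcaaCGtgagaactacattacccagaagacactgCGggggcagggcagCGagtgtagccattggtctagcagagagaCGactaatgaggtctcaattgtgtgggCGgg

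By the number of CG in the promoter, 35 of 50 tested members with under 15 were called up with shBRG1 in 501Mel (median 1.46), 47 of 90 with 15 to 24 (1.04) and 40 of 62 with 25 or more (1.10), so no steady order was seen. Of the 8 members with CACGTG, 3 were up and 1 down.

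BRG1 knockdown in Hermes 3A was followed by small rises. Of 222 tested members, 9 were called up (4.05%) and 0 down, beside 5.78% and 3.47% of 17222 genes tested. With edgeR 0 were also down at an unadjusted p under 0.05 with the fold threshold, and DESeq2 called 8 up and 0 down. At adjusted p alone 100 members rose and 11 fell, beside 28.2% and 28.6% of all genes, and 179 of 222 had a value above 0. The median was 0.24, against 0.01 over all genes tested and 0.11 over ZNF genes of other chromosomes. The 14 members not tested had at most 18 reads in any of the 6 libraries. By control level the medians were 0.31, 0.24 and 0.14 from the low to the high band. Other genes at these levels had medians of 0.22, 0.07 and -0.03. All 9 called members lay in the low band, 12.2% of the members tested there, beside 14.4% of the other genes at that level. The filter on low counts tilts that band towards rises here too.

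Among the 9, ZNF737 of cluster 4 had 1.86, 2.26 and 2.13 CPM with shSCR and 5.28, 4.63 and 4.92 with shBRG1, a log2 fold change of 1.25 (SE 0.136, adjusted p = 5.80e-09). ZNF415 of cluster 8 had 0.918, 0.959 and 1.17 CPM with shSCR and 2.18, 2.32 and 2.16 with shBRG1, a change of 1.13 (SE 0.188). ZNF560 had 0, 0.0799 and 0.0410 CPM with shSCR and 0.604, 0.722 and 0.528 with shBRG1, a fitted change of 3.98 (SE 0.568) that rests on few control reads. ZNF541, which fell in 501Mel, rose by 1.20 (SE 0.473) in Hermes 3A, from between 0.106 and 0.164 CPM to between 0.234 and 0.377.

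The difference between the lines was tested as a contrast of the 2 shBRG1 effects. It was called higher in 501Mel for 107 of 232 tested members and lower for 4, beside 12% and 14.9% of 21697 genes, with a median difference of 0.95 against -0.03 over all genes. The largest differences among members with a mean of at least 100 reads in the highest group were those of ZNF442 (5.01, SE 0.4998), ZNF491 (4.805, SE 1.35), ZNF93 (4.75, SE 0.363), ZNF177 (4.43, SE 0.189) and ZNF781 (4.08, SE 1.12). ZNF491 had at most 8 reads in any 501Mel library of this contrast and ZNF781 at most 11 in any Hermes 3A library, so that each was tested in only 1 line by itself and one arm of its difference rests on a few reads. The ZNF781 difference was 3.03 and not called without replicate 2 of shSCR in Hermes 3A. ZNF442 had 0.734, 0.479 and 0.512 CPM with shSCR in Hermes 3A and 1.15, 0.597 and 0.93 with shBRG1, groups that overlap and do not pass the test (edgeR adjusted p = 0.0856). The difference was lower in 501Mel for ZNF837 (-2.24, SE 0.254) and ZNF536 (-1.99, SE 0.104), which rose with shBRG1 in Hermes 3A at adjusted p alone.

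Called up with shBRG1 in both lines were 8 members: ZNF135, ZNF208, ZNF415, ZNF560, ZNF606, ZNF607, ZNF626 and ZNF737. How many of all genes were called up in both lines was not counted. Of the 8 members, ZNF607 was called different between the lines, with a rise of 3.15 in 501Mel and 1.03 in Hermes 3A (difference 2.08, SE 0.190, adjusted p = 3.92e-12). ZNF737 differed by 0.56 (SE 0.207, adjusted p = 0.0189 by edgeR), under the fold threshold. For ZNF606 the difference was -0.12, with an interval of 2 SE on each side from -0.48 to 0.24. For ZNF560 it was 0.02, with an interval from -0.61 to 0.66, and for ZNF208 0.27, from -1.28 to 1.81, too wide to tell like effects from unlike ones.

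MITF knockdown in 501Mel changed few members. Of 209 tested, 12 were called up (5.74%) and 2 down (0.957%), beside 5.59% and 3.40% of 17701 genes, so the share called up was close to that of all genes. At adjusted p alone 16 rose and 10 fell, beside 10.0% and 10.5% of all genes. The median was 0.07 against 0.01 over all genes and became -0.02 without replicate 1 of shSCR2. The 27 members not tested had at most 15 reads in any of the 4 libraries. The count up ranged from 3 without replicate 2 of shMITF to 24 without replicate 1 of shMITF, and was 6 without replicate 1 of shSCR2.

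The 12 were ZNF135, ZNF177, ZNF208, ZNF433, ZNF506, ZNF524, ZNF558, ZNF560, ZNF577, ZNF600, ZNF606 and ZNF607. ZNF600 of cluster 8 had 1.10 and 0.954 CPM with shSCR2 and 3.23 and 5.85 with shMITF, a log2 fold change of 2.15 (SE 0.387, adjusted p = 0.00564). ZNF577 of cluster 8 had 7.35 and 8.93 CPM with shSCR2 and 17.6 and 23.8 with shMITF, a change of 1.34 (SE 0.218, adjusted p = 0.00373). ZNF208 had 1.84 and 1.41 CPM with shSCR2 and 2.99 and 8.18 with shMITF, a change of 1.796 (SE 0.483). The 2 that fell were ZNF850 of cluster 6, with 29 fingers, from 19.1 and 21.9 CPM to 8.38 and 7.66 (-1.35, SE 0.190, adjusted p = 0.00200), and ZNF749, from 13.5 and 24.9 CPM to 8.77 and 6.45 (-1.34, SE 0.310). ZNF208 was no longer called without replicate 1 or 2 of shSCR2 or replicate 2 of shMITF (0.89 without the last), nor ZNF749 without replicate 2 of shSCR2 (-0.84) or of shMITF.

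The control matters for these calls. With both scramble groups pooled, ZNF208 and ZNF600 remained up and ZNF749 down, and the other 11 were no longer called. The 2 scramble groups of 501Mel themselves differed for the members: shSCR2 was higher than shSCR1 for 25 and lower for 19 of 213 tested, beside 12.3% and 20.7% of 19056 genes, and without replicate 1 of shSCR2 the first count was 39. With plain library sizes the counts were 18 and 22, so which of them is larger depends on the scaling.

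MITF knockdown in Hermes 3A changed 4 of 218 tested members, all up (1.83%), beside 3.35% of 16508 genes up and 4.04% down. With edgeR 0 were down, 1 was down at an unadjusted p under 0.05 with the fold threshold, and DESeq2 called 5 up and 1 down. At adjusted p alone 12 rose and 4 fell, beside 7.85% and 9.15% of all genes, and the median was 0.15 against 0.05. The 14 listed members not tested, and the 4 with no row for shMITF, had at most 18 reads in any library. ZNF358 of cluster 2, with 9 fingers and no KRAB core, had 19.0, 19.8 and 17.8 CPM with shSCR and 47.7, 47.2 and 44.2 with shMITF, a log2 fold change of 1.30 (SE 0.121, adjusted p = 0.000695). Of its transcript stretches 28.6% occur in another gene. ZNF580 rose by 1.11 (SE 0.170) and ZNF599 by 1.03 (SE 0.208). Without any 1 of the 3 shSCR replicates the count was 2, ZNF599 and ZNF606 no longer being called, and ZNF580 was at 0.93 and not called without replicate 2 of shMITF. ZNF749 had 7.93, 30.0 and 9.30 CPM with shMITF against 34.6 to 36.3 with shSCR, with replicate 2 apart from the other two, and was not called (-1.18, SE 0.445, adjusted p = 0.106).

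The shMITF effect was called higher in 501Mel than in Hermes 3A for 3 of 224 members and lower for 0 (edgeR; 3 lower at an unadjusted p under 0.05 with the fold threshold, 7 higher and 2 lower by DESeq2), beside 2.00% and 0.643% of 19284 genes. ZNF600 (1.82, SE 0.383) and ZNF577 (1.44, SE 0.303) were among them. The count was 0 without replicate 1 or 2 of shSCR2, replicate 2 of shMITF in 501Mel, or any shSCR replicate.

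Within 501Mel the shBRG1 effect exceeded the shMITF effect for 116 of 229 members and was below it for 8, beside 11.8% and 15.5% of 22255 genes, with a median difference of 1.13 against 0.02. Each effect was taken against its own scramble group. ZNF781 (4.55, SE 0.777), ZNF850 (3.90, SE 0.180), ZNF177 (3.45, SE 0.287), ZNF540 (2.95, SE 0.440) and ZNF468 (2.69, SE 0.168) had the largest differences among members with a mean of at least 100 reads. Of the transcript stretches of ZNF468, 55.8% occur in another gene, so its own share of these reads is uncertain. ZNF850 moved in opposite directions: it rose by 2.52 with shBRG1, from 7.91, 10.7 and 11.0 CPM to 56.7, 56.7 and 55.0, and fell by 1.35 with shMITF. Its 2 control groups differed as well, with shSCR2 above shSCR1 by 1.33 (SE 0.147). ZNF610 (-1.95, SE 0.446), ZNF536 (-1.66, SE 0.191), ZNF846 (-1.32, SE 0.275), ZNF497 (-1.30, SE 0.188) and ZNF524 (-1.11, SE 0.255) had the largest differences the other way. ZNF610 was at -1.12 without replicate 2 of shMITF.

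Over the 4 knockdown comparisons, 130 of 232 members tested at least once were called up in 1, 9 in 2, 4 in 3 and 1 in all 4. That 1 was ZNF606 of cluster 9 (chr19:57977053-58003349), a KRAB gene with 13 fingers. In 501Mel it had 7.82, 7.83 and 8.60 CPM with shSCR1 and 16.6, 17.8 and 15.2 with shBRG1 (1.04, SE 0.0804), and 3.43 and 3.23 CPM with shSCR2 and 7.05 and 7.30 with shMITF (1.11, SE 0.258). In Hermes 3A it had 2.22, 1.39 and 2.76 CPM with shSCR, 4.60, 5.01 and 4.59 with shBRG1 (1.14, SE 0.163) and 4.70, 4.63 and 5.03 with shMITF (1.17, SE 0.279). No control overlapped its knockdown group in any of the 4, but shSCR2 was below shSCR1 (-1.02, SE 0.144), and against the pooled scramble groups the shMITF change in 501Mel was 0.40 and not called. Each of the 4 calls was lost when some 1 library was left out: the change was 0.98 without replicate 2 of shBRG1 in 501Mel, 0.92 (shBRG1) and 0.93 (shMITF) without replicate 2 of shSCR in Hermes 3A, and 1.06 with an adjusted p no longer under 0.05 for shMITF in 501Mel without replicate 2 of shSCR2. The 2 Hermes 3A comparisons share their controls. ZNF135, ZNF208, ZNF560 and ZNF607 were up in 3, and only ZNF749 was called down in 2. Of the transcript stretches of ZNF135, 33.8% occur in another gene. The same counts were not made over all genes, so these overlaps are not shown to be particular to the members.

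**Figure D4:**
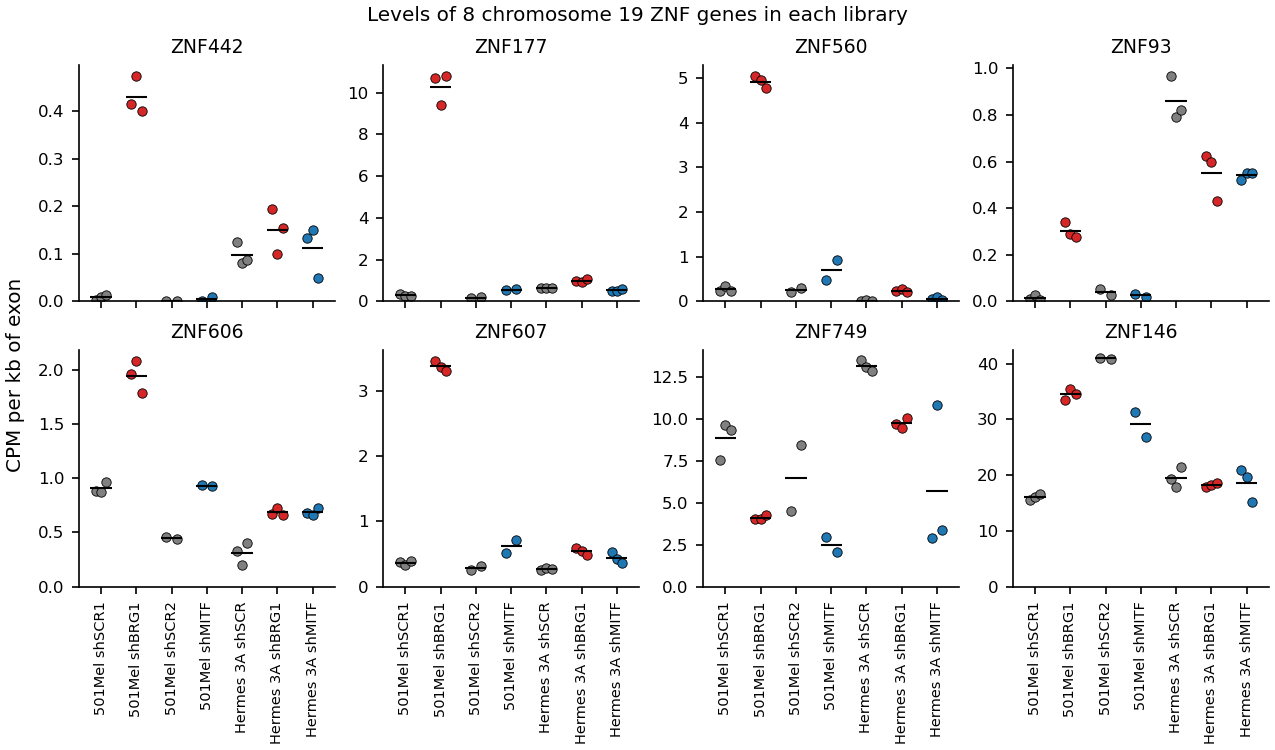
Level of 8 chromosome 19 ZNF genes in each of the 19 libraries, in CPM per kb of exon, all libraries scaled together (vertical axis, own scale for each gene, starting at 0). Points are libraries and lines group means. ZNF442, ZNF177, ZNF560 and ZNF607 are highest with shBRG1 in 501Mel, while ZNF93 is highest with shSCR in Hermes 3A and ZNF146 with shSCR2 in 501Mel.

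Without knockdown, members were lower in the melanoma line more often than higher. Against Hermes 3A scramble, the mean of the 2 501Mel scramble groups was called lower for 58 and higher for 13 of 226 tested members, beside 18.0% and 20.1% of 20354 genes, with a median of -0.29 against 0.08. Other protein-coding genes of chromosome 19 gave 194 lower (22.7%) and 107 higher (12.5%) of 855, with a median of -0.28. With shSCR2 alone the counts were 59 lower and 16 higher and the members' median -0.14, and with plain library sizes 48 lower and 17 higher and -0.09, where the median of all genes was 0.28. In cluster 8, 19 of 38 were lower and in cluster 3, 11 of 24, while in cluster 7 it was 1 of 23 and in cluster 9, 7 of 53. Among members with a mean of at least 100 reads in the higher group, ZNF439 of cluster 3 was furthest apart, at 27.1 to 29.2 CPM in the 3 Hermes 3A libraries and 0.156 to 0.266 in the 5 501Mel libraries (-7.18, SE 0.130, adjusted p = 1.56e-17). ZNF69 (-6.50), ZNF563 (-5.98) and ZNF253 (-5.77) followed, each at most 0.142 CPM in every 501Mel scramble library. Among the same members, the most raised in 501Mel were ZNF114 (3.75, SE 0.141), from 0.723 to 0.850 CPM in Hermes 3A and 4.04 to 27.5 in 501Mel, ZNF544 (2.68), ZNF726 (1.92), ZNF850 (1.56) and ZNF460 (1.46).

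**Figure D5:**
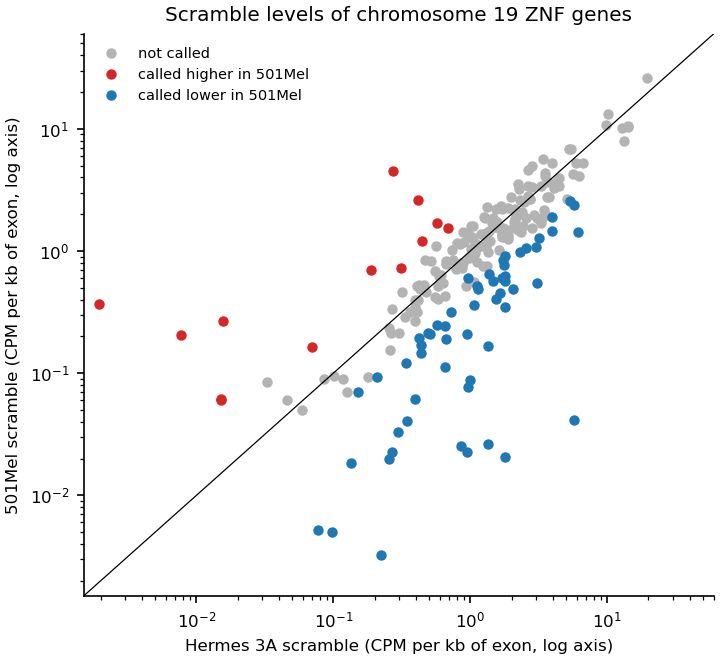
Mean level of 225 tested chromosome 19 ZNF genes in the Hermes 3A scramble libraries (horizontal axis) and the 501Mel scramble libraries (vertical axis), both in CPM per kb of exon on log axes, with the line of equal level. Colours mark the 58 genes called lower and the 13 called higher in 501Mel, and 1 gene listed at 0 in one line is not drawn.

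Genes that were low in the melanoma line did not all rise with shBRG1. ZNF439 went from 0.238 to 0.334 CPM up to 0.453 to 0.707 (0.88, SE 0.313, not called), far under its Hermes 3A level, whereas ZNF563 rose by 3.52 (SE 0.351) and ZNF253 by 2.27 (SE 0.362). With the line difference taken from shSCR2, which the shBRG1 comparison does not use, 39 of the 56 tested members lower in 501Mel than in Hermes 3A were called up by shBRG1 in 501Mel and 5 down (median 1.60). Of 16 higher members 13 were up (median 1.58), and of the 147 others 78 were up (median 1.03). The same split was not made over all genes, so these counts are not shown to be particular to the members.

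Some members have roles of their own. ZNF91 and ZNF93, both in cluster 4, are known to repress SVA and L1 retrotransposons. ZNF93 had 0.0715, 0.178 and 0.0342 CPM with shSCR1 and 2.13, 1.79 and 1.72 with shBRG1 in 501Mel (4.16, SE 0.314), and it fell with shBRG1 in Hermes 3A, at adjusted p alone, from 4.81, 4.0 and 4.12 CPM to 3.14, 3.03 and 2.20 (-0.62, SE 0.143). ZNF91 went from 4.79, 5.80 and 5.48 CPM to 11.1, 9.63 and 12.1 in 501Mel (1.03, SE 0.0996), and fell by 0.25 (SE 0.0839) in Hermes 3A, under the fold threshold. ZNF274 of cluster 9, known to bring SETDB1 to the 3′ ends of zinc finger genes, rose with shBRG1 in 501Mel from 17.2, 16.4 and 16.2 CPM to 60.1, 60.9 and 55.0 (1.82, SE 0.0597) and in Hermes 3A, under the fold threshold, by 0.76 (SE 0.0769). With shMITF it was 0.04 (SE 0.165) in 501Mel and 0.52 (SE 0.180) in Hermes 3A, neither past the test. ZNF304, a KRAB repressor, rose by 0.79 (SE 0.0613) and 0.41 (SE 0.0798) with shBRG1 in 501Mel and Hermes 3A, both under the fold threshold. ZNF331, an imprinted gene, changed by 0.12 (SE 0.0549) and -0.20 (SE 0.0766) with shBRG1.

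The highest levels per kilobase belonged mostly to genes without a KRAB core. ZNF146, a protein made almost wholly of fingers, was first in both lines, with 16.1 ± 0.546 CPM per kb with shSCR1, 40.9 ± 0.187 with shSCR2 and 19.6 ± 1.78 with shSCR in Hermes 3A (SD, n = 3, 2 and 3). It rose by 1.03 (SE 0.0477) with shBRG1 in 501Mel, to 34.5 CPM per kb, which is below its shSCR2 level. In 501Mel ZNF358, ZNF787, ZNF581 and ZNF428 followed, with scramble means of 13.3, 10.7, 10.6 and 10.3 CPM per kb, the last 3 of which differ by less than the spread between libraries. In Hermes 3A ZNF428, ZNF581, ZNF749 and ZNF317 followed, at 14.2 ± 0.681, 14.2 ± 1.77, 13.2 ± 0.333 and 12.8 ± 0.185 CPM per kb. With shBRG1 in 501Mel none of ZNF358, ZNF787, ZNF581, ZNF428 and ZNF317 was called, with changes from -0.08 to 0.34.

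The co-repressors through which KRAB proteins act were followed as a list. Of 27 listed genes (TRIM28, SETDB1, heterochromatin proteins, the NuRD and HUSH complexes and others), 26 were tested, and UHRF1 was not analysed here. With shBRG1 in 501Mel, 1 of 26 was called up and 4 down, beside 21.7% and 17.4% of all genes, with a median of -0.30. With adjusted p alone 7 rose and 17 fell, beside 41.2% and 39.1%. MORC2, a HUSH partner, rose by 1.27, from 45.1 to 109 CPM on average. ATRX, a chromatin remodeller of heterochromatin, fell by 1.60, CHD4 by 1.49, TRIM24 by 1.33 and CHD3 by 1.27 on the log2 scale. TRIM28 rose by 0.38 and SETDB1 fell by 0.21, both past adjusted p alone and under the fold threshold. In the other 3 comparisons edgeR called 0 up and 0 down, as did DESeq2 and an unadjusted p under 0.05 with the fold threshold. With shMITF in 501Mel 0 rose and 9 fell at adjusted p alone, beside 10.0% and 10.5% of all genes. With shBRG1 in Hermes 3A 8 rose and 13 fell, beside 28.2% and 28.6%, and with shMITF 1 rose and 0 fell, beside 7.85% and 9.15%.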

How the data were processed

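Total RNA was depleted of ribosomal RNA and normalized with duplex-specific nuclease, and the values deposited for each of 19 libraries are unnormalized counts of reads by Ensembl identifier. The submitters' processing notes name CASAVA 1.8, TopHat 1.4.1, Bowtie 0.12.7 and genome build hg19. The read counter, annotation release, strand setting and treatment of reads with several matches are not given in the sources used here.

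Genes were matched by Ensembl identifier to GENCODE release 29, so coordinates are on GRCh38 while the counts were made on hg19. Zinc fingers and the KRAB core were counted in proteins translated from GENCODE coding transcripts, in place of the RefSeq proteins planned. Counts were fitted with edgeR 4.0.16 in R 4.3.3 (filterByExpr, TMM, robust quasi-likelihood test, Benjamini-Hochberg adjustment over all genes tested). A gene was called at an adjusted p under 0.05 with an absolute log2 fold change over 1. Standard errors were derived from the fitted change and its F statistic. Each knockdown was fitted with its own scramble group, and differences between effects as contrasts in 1 fit. DESeq2 1.42.0, plain library sizes, other filters, pooled controls, a replicate block and leaving out each library were alternatives. CPM values use TMM-scaled library sizes of the groups in that fit, so a library's CPM can differ between comparisons. The scripts were tested on simulated data.

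Named genes were the called members with the largest changes (8 per direction in a knockdown, 5 in other comparisons) with a mean of at least 100 reads in the higher group and groups that do not overlap, those called in both knockdowns of 501Mel or in both lines, the 5 highest per kilobase in each line, and a few with known roles. Not all of them are described. The members and lists were chosen with earlier results of these data known. No library pair agreed within sampling noise.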

Additional observations from a re-analysis of the deposited data

Results flagged for a closer look

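The effects of the same knockdown in the 2 lines were compared by a test of their difference (edgeR contrast, Benjamini-Hochberg adjustment). For shBRG1, 107 chromosome 19 ZNF genes had a higher effect in 501Mel than in Hermes 3A. Named genes among them were ZNF442 (5.01), ZNF491 (4.805), ZNF93 (4.75), ZNF177 (4.43), ZNF781 (4.08), ZNF799 (3.68), ZNF878 (3.35), ZNF44 (3.35) and ZNF578 (3.15), all as differences of log2 fold changes. ZNF491 had at most 8 reads in any 501Mel library of this contrast and ZNF781 at most 11 in any Hermes 3A library, so 1 arm of each difference rests on a few reads. ZNF536 (-1.99) and ZNF837 (-2.24) had a lower effect in 501Mel. For shMITF, 3 of 224 tested members (1.34%) had a higher effect in 501Mel, under the 2.00% of all genes tested. They were ZNF177 and the named genes ZNF600 (1.82) and ZNF577 (1.44). No group held 4 or more libraries, so single libraries were not screened against their group.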

How the results depend on the processing

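Of 284 recomputed summaries, 224 kept their side and size, 59 moved and 1 changed sign. With plain library sizes the members' median was 1.53 for shBRG1 and 0.16 for shMITF in 501Mel, 0.34 and 0.25 in Hermes 3A, and 5 members were lower in the difference of the 2 effects in 501Mel. Without the filter on low counts the 501Mel medians were 1.15 and 0.13, with 21 up for shMITF. With at least 10 counts in every sample the shBRG1 median in 501Mel was 1.19, and 5 were up in Hermes 3A. With pooled scramble controls, shBRG1 in 501Mel gave a median of 1.04 with 2 down, and shMITF gave 0.16 with 2 up and 1 down. With all groups of a line in 1 fit, shMITF gave 23 up in 501Mel and 1 down in Hermes 3A. A test against the fold threshold itself (glmTreat) left 0 up and 0 down for shMITF in 501Mel, 3 up for shBRG1 and 0 up for shMITF in Hermes 3A. At adjusted p alone the counts down were 15 and 10 in 501Mel, and in Hermes 3A 100 up and 11 down for shBRG1 and 12 up and 4 down for shMITF. DESeq2 called 1 down for shMITF in Hermes 3A, and 7 higher and 2 lower for the shMITF difference between lines. The causes were not tested.

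Leaving out 1 library at a time, shBRG1 in 501Mel gave 128 to 142 up, 5 to 6 down and medians of 1.11 to 1.17, and in Hermes 3A 7 to 11 up and 0.21 to 0.28. For shMITF in 501Mel the range was 3 to 24 up, 1 to 4 down (4 without replicate 1 of shMITF) and medians of -0.016 to 0.20, the lowest without replicate 1 of shSCR2. For shMITF in Hermes 3A it was 2 to 5 up, 0 to 1 down and 0.08 to 0.21. The difference between lines gave 93 to 116 higher and 4 to 5 lower for shBRG1 and 0 to 4 and 0 to 1 for shMITF. Within 501Mel it gave 91 to 120 and 5 to 9, with 5 lower without replicate 2 of shMITF. The line comparison gave 11 to 14 higher and 55 to 60 lower, and shSCR2 against shSCR1 20 to 39 and 15 to 19. Where 1 sample is left in a group, it is assumed to vary like the others.

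Replicate numbers were shared between groups, and deviations of same-numbered libraries correlated between -0.03 and 0.095. With groups of 2 or 3 libraries this check cannot exclude that the numbers pair the samples. With the replicate block, the members up and down were 139 and 6 for shBRG1 and 15 and 2 for shMITF in 501Mel, and 9 and 0, and 4 and 0, in Hermes 3A. The blocked differences gave 105 and 4, 3 and 0, and 114 and 9, the line comparison 13 and 57, and the scramble groups 24 and 17. Low counts limit the 7 to 27 members not tested in each knockdown.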
